A study of Mus musculus with 24 samples.

Results

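The chemokine receptor genes Ccr9, Cxcr6, Xcr1, Ccr1, Ccr3 and Ccr2, with the more distant Ccrl2, were examined on mouse chromosome 9 for chromatin accessibility in young and aged small intestinal epithelium. Their regions were all consensus peaks whose nearest annotated gene was one of these 7 receptors, at up to 100000 bp from the transcription start site. The rule found 19 peaks of 150646 in the data set, of which 14 passed the filter on low counts and were tested for age. Ccr1 had 7 peaks, Ccr2 had 6, Ccrl2 had 3, Ccr9, Cxcr6 and Ccr3 had 1 each, and Xcr1 had 0. The set was picked with the aged against young values of Ccr2 peaks already known, so its age differences are given as a description, without p-values. The farthest of the 19 lay 45328 bp from its start site, so no peak lay near the distance limit.

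The assay was ATAC-seq: the Tn5 transposase enters open chromatin and tags it with sequencing adapters. Freshly isolated epithelial cells of C57BL/6JRj mice were released with EDTA and trypsin and sorted as EpCam+ and CD45-, a gate meant to keep epithelial cells and leave out leukocytes. The groups were young (3 libraries, numbered 1, 2 and 4) and aged (3 libraries, also 1, 2 and 4), which shared strain, tissue and sort. The series' design text gives 2 to 3 months and 20 to 22 months for its young and aged mice in other assays. Neither sex nor a treatment is given, and the labels do not say that each library came from its own mouse, so the spread between libraries may be partly technical.

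Chemokine receptors are G protein-coupled receptors of the cell surface that steer migrating cells along gradients of small secreted proteins, the chemokines. Most are receptors of leukocytes: Ccr2 draws inflammatory monocytes out of the bone marrow, Ccr3 is the eotaxin receptor of eosinophils, and Ccr9 brings T cells to the small intestine, whose epithelium secretes its ligand Ccl25. Cxcr6 is found on tissue T and natural killer cells, Xcr1 on cross-presenting dendritic cells and Ccr1 on several myeloid cells, while Ccrl2 is an atypical receptor that binds chemerin without classical signalling.

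The label of a cluster held for 6 of the 7 genes. By the RefSeq annotation of GRCm38, Ccr9 to Ccr2 lay within 342 kb (123767211 to 124109140), whereas Ccrl2 ended at 111057518, which is 12.7 Mb before Ccr9. Fyco1 and Ccr1l1 lay among them.

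RefSeq gave 9 promoter windows for the 7 genes, each of 300 bases, from 250 before to 50 after a start site. Only the 3 overlapping windows of Ccrl2 met a consensus peak, against 47.7% of all 32851 RefSeq promoter windows. The start site of Ccr9 lay 1279 bp from the nearest consensus peak, that of Ccr2 3209 bp, Xcr1 9790 bp, Cxcr6 10042 bp, Ccr3 11478 bp and Ccr1 31198 bp. The deposited peak annotation, however, also gave a promoter label of Ccr2 to the peak at chr9:124105392-124105465. It gave a promoter label of the Ccr9 gene identifier to chr9:123677519-123677593 and chr9:123677979-123678075, both assigned to Gm17200. By the RefSeq start sites, then, Ccrl2 was the only receptor with a peak at its start. The contrast is shown by 4 stretches of the 250 bases before a start site, each 5′ to 3′ on the gene's strand (RefSeq, GRCm38.p6), with capitals for bases inside a consensus peak. The first is Ccrl2 (chr9:111057519-111057768, minus strand), where 104 bases lay in the peak. The second precedes the long non-coding RNA gene Gm51701 (chr9:123924898-123925147, plus strand), whose first 188 bases lay in the peak with the highest level of those assigned to Ccr1. The others are Ccr1 (chr9:123968693-123968942, minus strand) and Xcr1 (chr9:123862030-123862279, minus strand), which lay in no peak.
Ccrl2: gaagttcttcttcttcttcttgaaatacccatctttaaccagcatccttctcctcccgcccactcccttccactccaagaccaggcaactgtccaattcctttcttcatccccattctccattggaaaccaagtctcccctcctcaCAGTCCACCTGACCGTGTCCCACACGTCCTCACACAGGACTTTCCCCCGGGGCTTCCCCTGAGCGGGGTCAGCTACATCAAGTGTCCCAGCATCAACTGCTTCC
Gm51701: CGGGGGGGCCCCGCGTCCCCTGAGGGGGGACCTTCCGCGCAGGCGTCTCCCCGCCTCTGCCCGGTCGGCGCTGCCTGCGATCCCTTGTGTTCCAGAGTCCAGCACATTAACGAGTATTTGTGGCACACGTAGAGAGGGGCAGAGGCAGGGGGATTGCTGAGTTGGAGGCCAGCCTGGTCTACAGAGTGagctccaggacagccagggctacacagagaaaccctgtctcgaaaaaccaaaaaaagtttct
Ccr1: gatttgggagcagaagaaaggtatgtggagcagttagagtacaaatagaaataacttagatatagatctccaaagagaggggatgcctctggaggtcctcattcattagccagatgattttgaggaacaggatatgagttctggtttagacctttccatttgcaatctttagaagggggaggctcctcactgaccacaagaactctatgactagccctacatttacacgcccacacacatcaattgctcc
Xcr1: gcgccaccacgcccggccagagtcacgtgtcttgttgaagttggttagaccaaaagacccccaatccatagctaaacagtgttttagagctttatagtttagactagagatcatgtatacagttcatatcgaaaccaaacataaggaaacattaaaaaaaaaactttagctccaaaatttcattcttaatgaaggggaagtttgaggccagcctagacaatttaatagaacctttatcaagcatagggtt

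The bases inside the peaks were richer in G and C, at 61.5% for Ccrl2 and 66.5% for the Gm51701 stretch, than the Ccr1 and Xcr1 stretches at 43.6% and 38.8%. Taken whole, the Ccrl2 and Gm51701 stretches had 54.0% and 61.6%. Over the 300-base windows, G and C made up 38.0% in Ccr2, 39.0% in Ccr3, 40.0% in Xcr1, 44.0% in Ccr1, 44.3% in Cxcr6 and 51.3% in Ccr9. The windows of Ccrl2 had 52.0% to 53.0%, close to Ccr9, which met no peak, and to the median of 52.7% over all promoters. Short motifs were searched on both strands of these windows. The GATA motif AGATAA occurred in 4 of the 9 windows (Ccr3, Ccr2 and 2 overlapping windows of Ccrl2) and in 11.2% of all windows. The ETS motif GAGGAA occurred in 2 (Ccr1 and Ccr3; 28.3% of all), the RUNX motif TGTGGT in 2 (Cxcr6 and Ccr1; 16.8%), the AP-1 motif TGANTCA in 1 (Ccr3; 7.8%), the CDX motif TTTATNG in 1 (Xcr1; 10.9%) and the HNF4 motif CAAAGTC in 0 (4.4%). These matches describe letters in the windows and not binding.

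Library depth lay between 6149680 counts in peaks (young 4) and 23935291 (aged 2), and the 19 receptor peaks held between 371 counts (young 4) and 1743 counts (aged 2). Promoter peaks (within 1000 bp of the start site) were present for 8 of 10 epithelial markers, with summed levels of 263 to 297 CPM in aged and 269 to 311 CPM in young. The pan-leukocyte gene Ptprc, which encodes CD45, had no promoter peak, and 1 of 5 pan-leukocyte markers, Coro1a, had one (8.75 to 12.3 CPM in aged, 9.26 to 10.8 in young). Among 14 T cell markers 2, Cd8b1 and Cd2, had one (2.65 to 4.20 CPM in aged, 2.58 to 4.14 in young) and Cd3d, Cd3e and Cd3g had none. Among 13 markers of macrophages, monocytes and dendritic cells 5 had one: Cd14, Cd68, Cx3cr1, Flt3 and Batf3 (35.4 to 39.1 CPM in aged, 31.4 to 37.9 in young). Csf1r, Itgam, Itgax, Adgre1, Fcgr1, Mrc1, Lyz2 and Spi1 had none. Among 5 markers of B and plasma cells 1 had one (3.55 to 5.05 CPM in aged, 3.57 to 4.46 in young). Of 7 markers of eosinophils, neutrophils and mast cells 1 had one (0.227 to 0.710 CPM in aged, 0.319 to 0.792 in young), and of 6 of fibroblasts and endothelium 2 had one (12.3 to 13.9 CPM in aged, 11.0 to 14.4 in young). The ages overlapped in the summed level of every list, and the part of such cells in the results below was not tested. In a bulk library, more cells with an open site and a site more open in each cell cannot be told apart.

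Levels of the receptor peaks ran from the low end of all consensus peaks to well above their median. Per length, 11 of the 19 lay below the median level of all consensus peaks, 8.99 CPM per kb, where CPM are counts per 1000000 after scaling between libraries. Peaks annotated as intergenic made up 12 of the 19 (63.2%), against 34.9% of all peaks. The Ccr1 group held the strongest ones, led by 35.0 CPM per kb at 43849 bp from the Ccr1 start, higher than 89.2% of all consensus peaks. At the low end stood a Ccr2 peak at -20173 bp (a minus sign marks upstream of the start), with 2.07 CPM per kb.

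**Figure D1:**
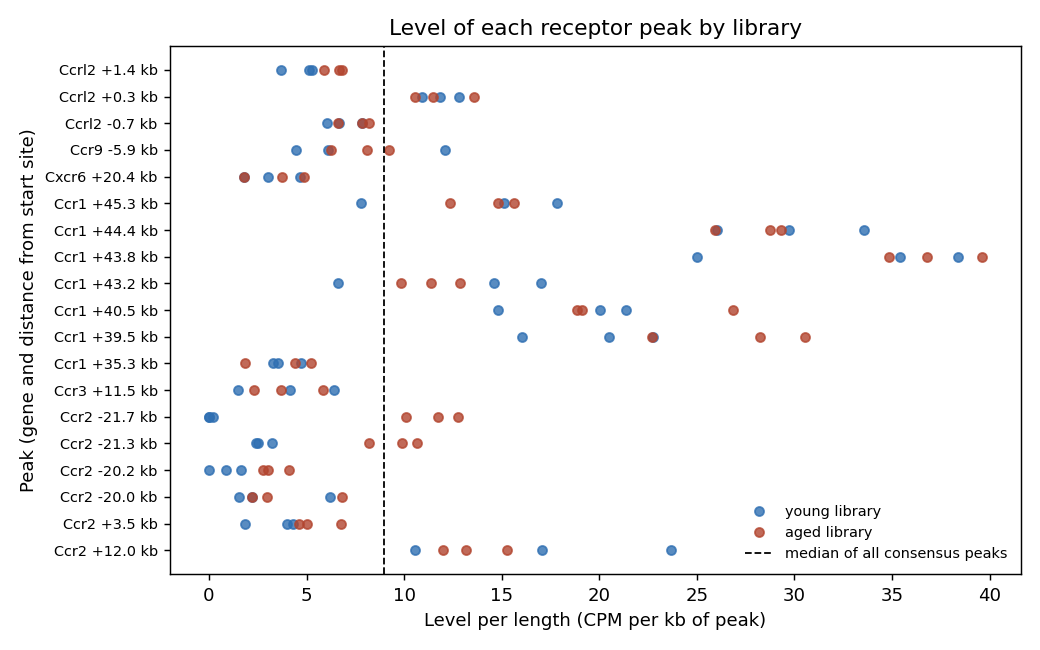
Level per length of each of the 19 receptor peaks (x axis, CPM per kb of peak) by library, with young libraries in blue and aged libraries in red; the y axis names the gene and the annotated distance from its start site. The dashed line is the median of all consensus peaks, 8.99 CPM per kb, and 11 of the 19 peaks have a mean below it.

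The called differences between the ages lay at Ccr2. A peak 21670 bp upstream of its start site (chr9:124080179-124080381, intergenic, 203 bp wide) was open in the aged libraries and nearly empty in the young ones. It held 42, 57 and 36 counts in aged 1, 2 and 4, against 1, 0 and 0 counts in young 1, 2 and 4. After scaling, aged stood at 2.59, 2.38 and 2.04 CPM (mean 2.34 ± 0.275, SD, n = 3) and young at 0.0458, 0 and 0 CPM. Every aged library thus lay far above every young one. The summed rates, 135 counts in aged against 1 in young, stood in a ratio of 113, with an exact 95% interval of 19.9 to 4493 that covers counting error only.

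Depth bears on the empty young libraries. At the aged mean level, 51.1, 47.2 and 14.7 counts would stand in young 1, 2 and 4, which is above a limit of 3 counts even in the shallow young 4. A count of 0 allows up to 0.149 CPM in young 2 and 0.478 CPM in young 4, taking 3 counts as the limit. The fitted log2 fold change of 6.40 depends on how the zeros are treated and is no bound. The peak passed the filter on low counts through the aged libraries alone, so that it had to differ once tested. Among all 150646 consensus peaks it was the only one with at most 1 count over the 3 young libraries and at least 10 in every aged library. The criterion was chosen after the values of this peak had been seen.

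The next peak began 56 bp farther on, at -21339 bp from the Ccr2 start (chr9:124080438-124080784, intergenic, 347 bp wide). It held 60, 82 and 50 counts in aged 1, 2 and 4 and 19, 17 and 7 counts in young 1, 2 and 4. Scaled, aged stood at 3.70, 3.43 and 2.84 CPM (mean 3.32 ± 0.439) and young at 0.870, 0.842 and 1.11 CPM (mean 0.942 ± 0.150). The ages did not overlap here either, but the young libraries were not empty. Its log2 fold change, aged over young, was 1.88 (SE 0.27), and the summed rates stood in a ratio of 3.74 (exact 95% counting interval 2.67 to 5.33). The neighbouring pair spans 606 bp, 48487 bp past the end of Ccr3 and 21134 bp before the RefSeq start of Ccr2.

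Both peaks of the pair were called higher in aged by the edgeR fit over all peaks, at a Benjamini-Hochberg adjusted p below 0.05. They were the only calls among the 14 tested receptor peaks, where 1.07% of all tested peaks were called higher. No receptor peak was called lower (0 of 14), against 0.528% of all. As the set was chosen from this contrast, nothing is read from these shares. With all libraries thinned to the depth of young 4, the peak at -21339 bp was not called (log2 fold change 1.60).

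**Figure D2:**
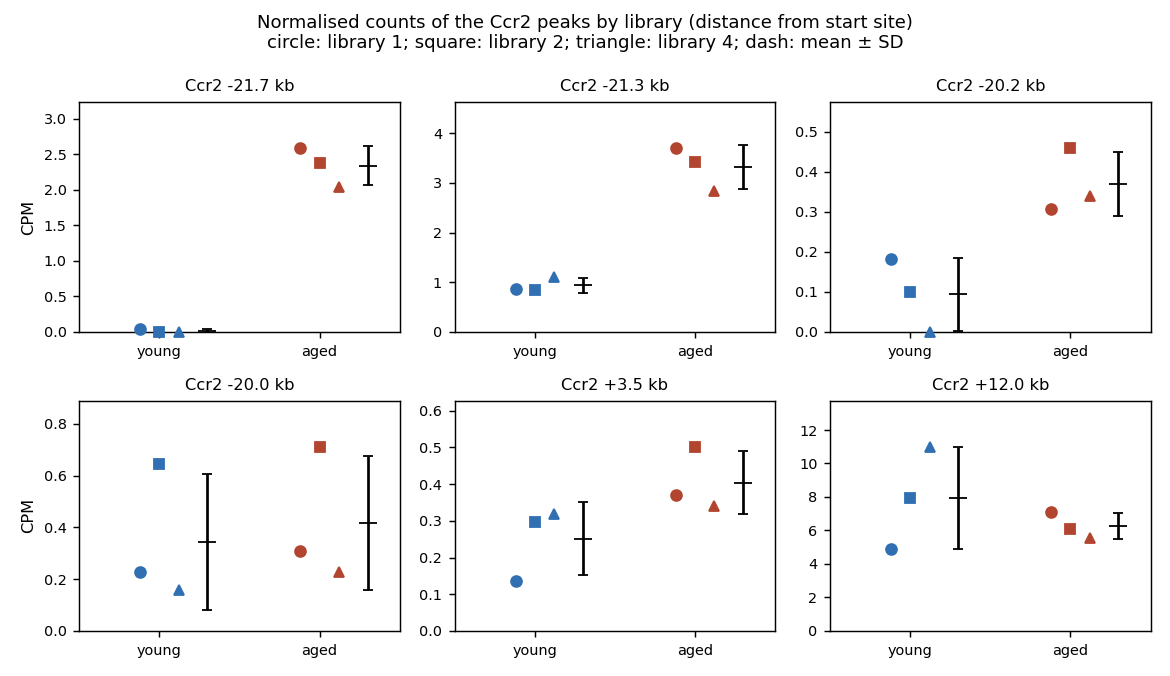
Normalised counts (y axis, CPM) of the 6 Ccr2 peaks in the 3 young (blue) and 3 aged (red) libraries, titled by distance from the annotated start site; dashes and bars are mean ± SD. In the upper row the 3 aged libraries lie above all young ones at -21.7, -21.3 and -20.2 kb. In the lower row they also do, by a small margin, at the peak 3478 bp from the start, while at 11990 bp the ages overlap. The peaks at -20.2 kb and 3478 bp fell below the filter on low counts.

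The other 4 Ccr2 peaks carried fewer counts or overlapped between ages. Beyond the pair by 937 bp, at -20173 bp from the start, a weak peak (chr9:124081722-124081833) held 5, 11 and 6 counts in aged 1, 2 and 4 and 4, 2 and 0 counts in young 1, 2 and 4. Aged lay above young there, at 0.370 ± 0.0797 against 0.0940 ± 0.0916 CPM, but the peak fell below the filter on low counts. Its neighbour at -19977 bp (chr9:124081922-124082025) held 5, 17 and 4 counts in aged 1, 2 and 4 and 5, 13 and 1 counts in young 1, 2 and 4, and the ages overlapped.

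Within the gene, the peak nearest the Ccr2 start (chr9:124105392-124105465, annotated promoter-TSS, 3478 bp from the start) held 6, 12 and 6 counts in aged 1, 2 and 4 and 3, 6 and 2 counts in young 1, 2 and 4. The levels were 0.404 ± 0.0856 CPM in aged and 0.251 ± 0.0990 CPM in young, again below the filter on low counts, and every aged library lay above the young ones by a small margin. The strongest Ccr2 peak lay 11990 bp from the start at an annotated transcription termination site past the RefSeq end of the gene (chr9:124113709-124114172). It stood at 7.09, 6.10 and 5.56 CPM in aged 1, 2 and 4 and at 4.90, 7.92 and 11.0 CPM in young 1, 2 and 4. Here the mean was lower in aged, 6.25 ± 0.772 against 7.94 ± 3.05 CPM, at a fitted log2 difference of -0.25 (SE 0.20), while the young libraries enclosed the aged ones. The calls at Ccr2 thus took in the upstream pair and not the strongest peak of the gene.

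As a description of the same counts, the share of Ccr2 counts that stood in the pair was 43.8%, 42.8% and 43.0% in aged 1, 2 and 4, against 14.4%, 8.59% and 8.86% in the young libraries of these numbers. Summed over all 6 peaks, Ccr2 stood at 14.4, 13.9 and 11.8 CPM in aged and at 6.35, 10.1 and 13.0 CPM in young (young 1, 2 and 4 in this order). Young 4 lay within the aged range, and 69 of its 79 Ccr2 counts stood in the peak at 11990 bp. The log2 fold change of the sum was 0.53 (SE 0.19) and was not called. It was 0.71 and called without young 4, 0.26 and not called without young 1, and 0.37 and not called with all libraries thinned to the depth of young 4. Sums run over different peaks and widths and are not levels per length.

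None of the other peaks examined around the cluster was called. In the window from 200000 bp before the Ccr9 peak to 200000 bp after the last Ccr2 peak, 41 peaks assigned to other genes were examined. By edgeR 40 of these were tested, 0 had an unadjusted p below 0.05 and 0 were called, and DESeq2 and limma-voom also called 0. Of all tested peaks 1.07% were called higher and 0.528% lower, so 0 calls among 40 lies near the general share. The 40 peaks had log2 fold changes from -1.0 to 0.38, 16 above and 24 below 0. The peak before the pair lay 46623 bp away, at Ccr3, and the one after it 937 bp away.

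**Figure D3:**
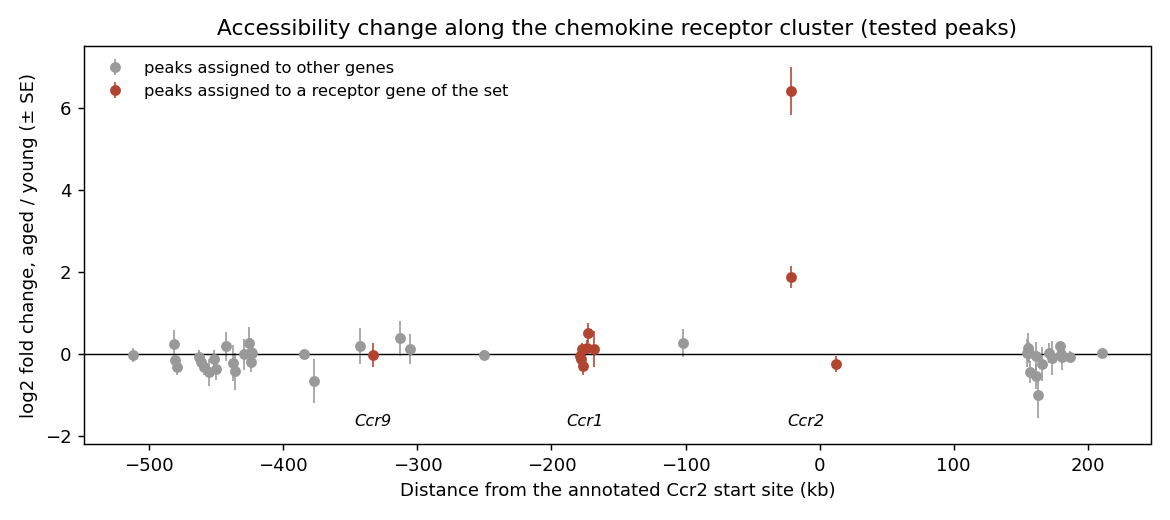
Log2 fold change, aged over young (y axis, ± SE), of the tested peaks against their distance from the annotated Ccr2 start site (x axis, kb). The pair upstream of Ccr2 stands at 6.40 and 1.88, and the 40 tested peaks assigned to other genes (grey) lie between -1.0 and 0.38.

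Ccr1, a receptor for inflammatory chemokines such as Ccl3 and Ccl5, showed no called difference. All of its 7 peaks were annotated as intergenic, at 35296 to 45328 bp from its start on the side of Xcr1. By RefSeq, however, the peaks chr9:123925301-123925612 and chr9:123928095-123928384 lay inside Gm51701 (123925148 to 123928706). Their assignment to Ccr1 comes from the nearest annotated start site. The strongest (chr9:123924602-123925085), which holds the capital letters of the Gm51701 stretch, stood at 19.2, 17.8 and 16.9 CPM in aged 1, 2 and 4 and at 18.6, 17.1 and 12.1 CPM in young 1, 2 and 4. Only young 4 lay apart, below the other libraries. Aged averaged 17.9 ± 1.16 CPM and young 15.9 ± 3.40 CPM, which differ by less than the young spread (log2 fold change 0.12, SE 0.13).

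Of the other Ccr1 peaks, the one at 43236 bp (chr9:123925301-123925612) had the lowest log2 fold change of all tested receptor peaks, -0.29 (SE 0.22). It stood at 4.01, 3.55 and 3.07 CPM in aged 1, 2 and 4 and at 5.31, 4.56 and 2.07 CPM in young 1, 2 and 4, where young 4 was again lowest and the ages overlapped. The peak nearest the gene, at 35296 bp (chr9:123933313-123933480), held 5, 21 and 13 counts in aged 1, 2 and 4 and 12, 12 and 5 counts in young 1, 2 and 4, with a log2 fold change of 0.12 (SE 0.44). The remaining Ccr1 peaks had log2 fold changes of -0.04 (SE 0.19, 45328 bp), -0.12 (SE 0.17, 44433 bp), 0.15 (SE 0.18, 40453 bp) and 0.50 (SE 0.24, 39548 bp). Young 4, the shallowest library, was the lowest of the 6 at 4 of the 7 Ccr1 peaks. The Ccr1 sum was not called (log2 fold change 0.08, SE 0.11), at 44.2 ± 1.01 CPM in aged and 40.8 ± 8.21 CPM in young. Without young 4 its log2 fold change was -0.04.

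Ccrl2 was open at its start site in both ages. Its main peak (chr9:111056828-111057622, promoter-TSS, 294 bp from the start) stood at 8.38, 9.11 and 10.8 CPM in aged 1, 2 and 4 and at 8.70, 10.2 and 9.40 CPM in young 1, 2 and 4. The libraries of both ages were intermixed, with means of 9.43 ± 1.23 and 9.43 ± 0.754 CPM. Its level of 11.9 CPM per kb exceeded 32.3% of all promoter peaks. A peak 1426 bp from the start (chr9:111055877-111056310) was annotated to a transcription termination site but lay inside the RefSeq gene. It stood at 2.90, 2.55 and 2.95 CPM in aged 1, 2 and 4 and at 2.29, 2.23 and 1.59 CPM in young 1, 2 and 4. There the aged libraries lay above the young ones, with a log2 fold change of 0.38 (SE 0.24) that was not called. The third, at -656 bp (chr9:111058013-111058338), had 0.19 (SE 0.24). The sum over Ccrl2 had 0.10 (SE 0.13).

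The lymphocyte receptor Ccr9 had 1 peak (chr9:123768490-123768777), in an intron, placed at -5907 bp from the annotated start and 1279 bp after the RefSeq start. It stood at 2.65, 1.80 and 2.33 CPM in aged 1, 2 and 4 and at 3.48, 1.29 and 1.75 CPM in young 1, 2 and 4. Young 1 was the highest and the ages overlapped, with a log2 fold change of -0.03 (SE 0.29). Without young 1 the value was 0.64. That Ccr9 had 1 peak reflects the rule of the nearest start site. Peaks starting at 123677519, 123677979, 123724791 and 123759370 were annotated to a promoter or intron of the Ccr9 gene identifier. They were assigned to Gm17200, Lztfl1 or Gm17020, were counted with the peaks of other genes and were not called.

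Cxcr6 and Ccr3 had 1 weak peak each, and both fell below the filter on low counts. The Cxcr6 peak (chr9:123826804-123826940), 20395 bp from the start in an intron of Fyco1, held 4, 16 and 9 counts in aged 1, 2 and 4 and 9, 5 and 4 counts in young 1, 2 and 4. The Ccr3 peak (chr9:124033449-124033555), intergenic and 11531 bp from the start, held 4, 15 and 7 counts in aged 1, 2 and 4 and 15, 9 and 1 counts in young 1, 2 and 4. Both sets of values overlapped between the ages. For Xcr1 the nearest peak belonged to the Fyco1 promoter.

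**Figure D4:**
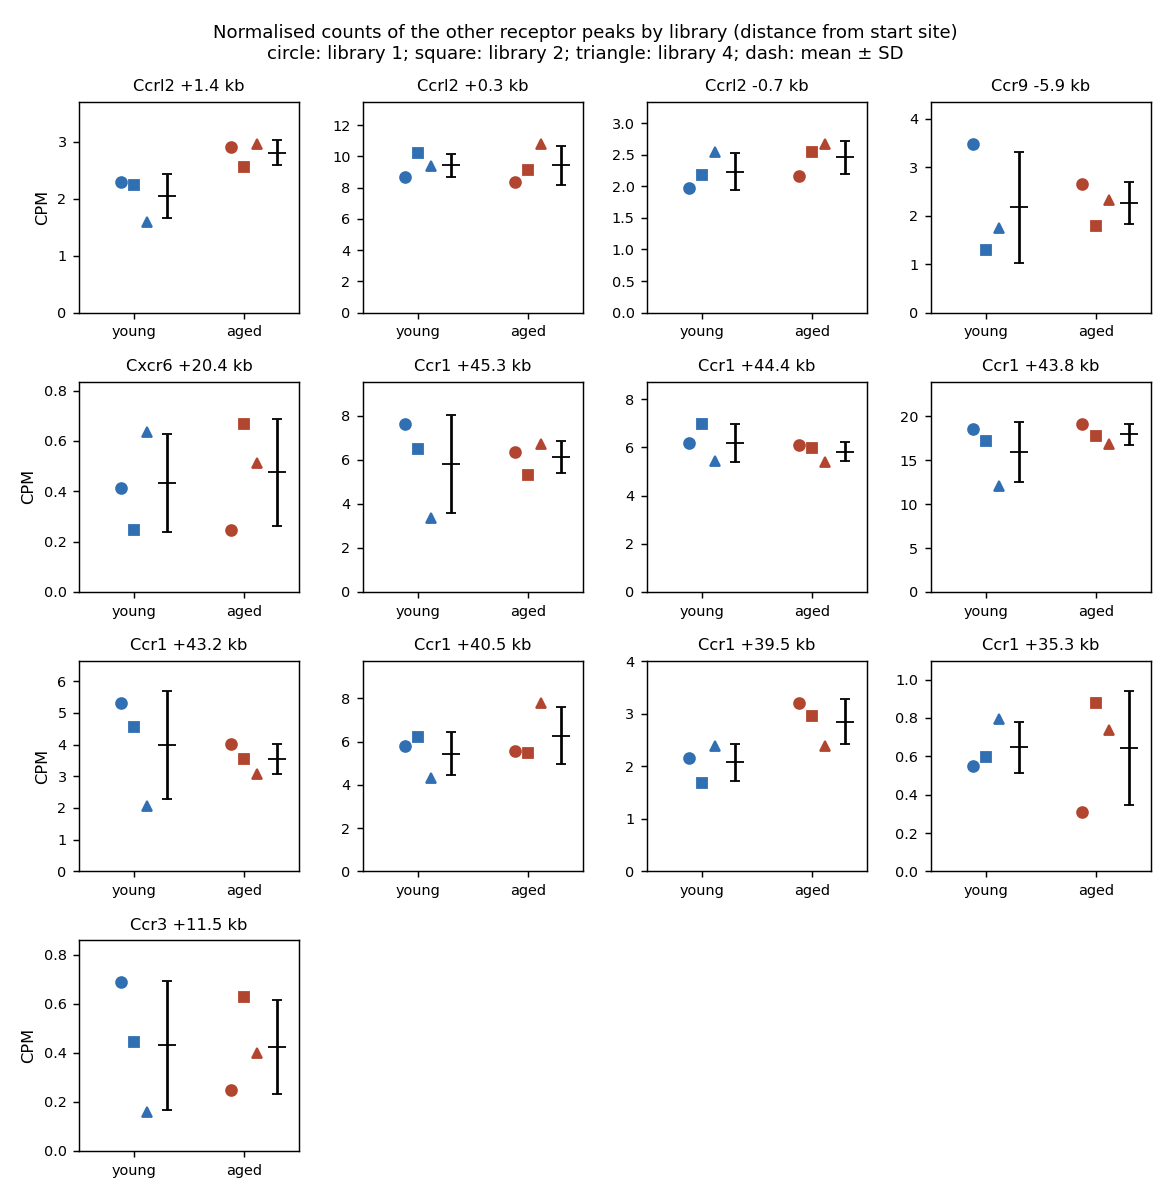
Normalised counts (y axis, CPM) of the 13 peaks of Ccrl2, Ccr9, Cxcr6, Ccr1 and Ccr3 in the 3 young (blue) and 3 aged (red) libraries, titled by distance from the annotated start site; dashes and bars are mean ± SD. Only at the Ccrl2 peak at +1.4 kb do the ages not overlap, with 2.55 to 2.95 CPM in aged against 1.59 to 2.29 CPM in young.

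Over the set, 8 of the 14 tested peaks had a log2 fold change above 0 and 6 below. Their median was 0.12, beside -0.00384 over all 129588 tested peaks. The aged libraries all lay above the young ones at 5 of the 19 peaks (4 of Ccr2 and 1 of Ccrl2), where 7.38% of all consensus peaks showed this, and all below at 0 of 19, against 6.43% of all. The set was chosen on these values, so nothing is read from the shares.

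The genes whose summed accessibility followed that of Ccr2 most closely over the 6 libraries were Gm8146 (Pearson r of log2 CPM 0.988), Psmd7 (0.985), Gm13157 (0.979), Gm25852 (0.978) and Kif1b (0.978). They were the highest of 27653 genes, 144 of which exceeded 0.9. None of the 5 was called, and their log2 fold changes lay between 0.04 (Psmd7) and 0.38 (Gm13157). The values share libraries and depth, and the order is a description.

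Other chemokine receptors, and the ligands of the 7 receptors, were compared as sums over their peaks. Of 17 other chemokine receptors 16 were tested and 0 were called in either direction, against 1.86% of all 27653 genes, with 6 above and 10 below 0 and a median log2 fold change of -0.03 (all genes -0.00313). The smallest p belonged to Cxcr4, the receptor of Cxcl12, with -0.40 (SE 0.19) and an edgeR adjusted p of 0.540 over all genes. Next came the neutrophil receptor gene Cxcr1 with -0.17 (SE 0.10). Cxcr4 was the 1 gene of these with an unadjusted p below 0.05 by edgeR, and DESeq2 and limma-voom likewise called 0 of the 16. At the level of single peaks 0 of 50 tested receptor peaks outside the set were called by any of these tools, with 2 at an unadjusted p below 0.05 by edgeR. Over all tested peaks, edgeR called 1.07% higher and 0.528% lower.

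Ligands of the receptors were likewise uncalled as sums, with 0 of 11 tested genes of a list of 17, against 1.86% of all genes. Their median was 0.02. By edgeR 2 of the 11 had an unadjusted p below 0.05, and DESeq2 and limma-voom called 0 as well. For Ccl25, the epithelial ligand of Ccr9, 14 peaks summed to 127 ± 8.39 CPM in aged and 125 ± 1.95 CPM in young, a log2 fold change of 0.02 (SE 0.06). Ccl2, the main ligand of Ccr2, had 1 peak at 1.06 ± 0.161 CPM in aged and 0.905 ± 0.547 CPM in young, with a log2 fold change of 0.00195 (SE 0.45). Ccl25 and Ccl2 were picked for mention after their values had been seen. The smallest p values were those of Ccl26, an eotaxin gene, with -0.27 (SE 0.08), Cxcl16, the ligand of Cxcr6, with 0.40 (SE 0.13), and Rarres2, which encodes chemerin, with 0.23 (SE 0.16); their adjusted p were 0.141, 0.148 and 0.819 by the same edgeR test. Among 48 tested ligand peaks 1 was called higher, assigned to Cxcl16 at the promoter of Zmynd15, and 1 lower, 18094 bp from Ccl26 at the promoter of another gene, where 1.07% and 0.528% of all tested peaks were called higher and lower.

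**Figure D5:**
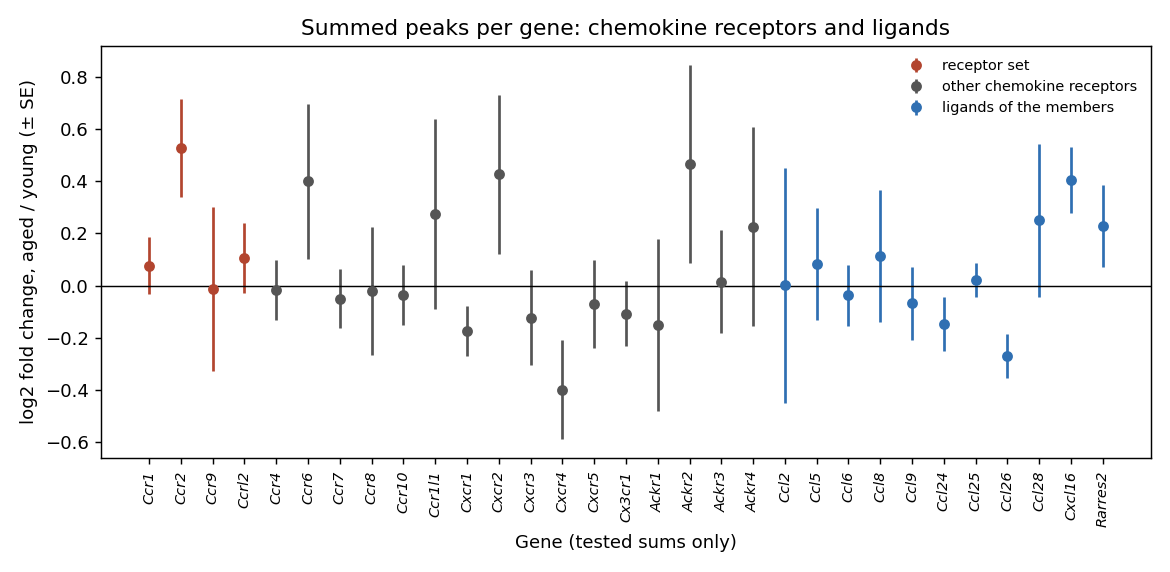
Log2 fold change, aged over young (y axis, ± SE), of counts summed over each gene's peaks, for the receptor set (red), other chemokine receptors (grey) and ligands (blue) with a tested sum. Ccr2 stands at 0.53, and no gene was called. Its sum includes the pair whose values were known when the set was picked, so nothing is read from its place among the genes.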

How the data were processed

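The authors deposited raw counts over 1 consensus peak set shared by all libraries, without normalisation. The 4 lane records of a library share 1 column, so 24 records are 6 libraries. A second deposited table gives each peak's position, nearest gene and distance to its start site. The submitters' processing notes name Trim Galore 0.6.4, BWA 0.7.17-r1188, Picard 2.23.1, MACS2 2.2.7.1 and featureCounts 2.0.1 with GRCm38. Peak caller settings, any Tn5 shift and whether reads or fragments were counted were not stated in any source used here. The intervals come from counts summed over the 3 libraries of an age, so they cover counting error only. Libraries were amplified by 17 PCR cycles without stated molecular identifiers, and the intervals make no allowance for PCR copies.

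Peaks were filtered (filterByExpr), scaled (TMM) and fitted with age as the only term by the quasi-likelihood test of edgeR 4.0.16 in R 4.3.3, with Benjamini-Hochberg adjustment over all 129588 tested peaks. A call is an adjusted p below 0.05. Standard errors are those implied by the test statistic. For gene values, counts were summed over all peaks within 100000 bp. The procedure was also run on simulated data as a check of the code. Its outcome is not reported here, and no result above rests on it. Members and lists were chosen with earlier results of these data known. Named peaks were, per receptor, the peak nearest the start and the strongest, all called peaks and the 2 highest and 2 lowest fold changes; in other lists, up to 3 genes with the smallest p.

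Replicate numbers occur in both ages. After subtracting the mean of each age, libraries with the same number correlated at 0.236, 0.182 and 0.123 (numbers 1, 2 and 4), all above the criterion of 0.1, and blocking on the number was run as an alternative. The pairing comes from the data, as no label states what the number stands for. No 2 libraries agreed within sampling noise. Peaks of 1 further gene entered the fits and are not reported here.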

Additional observations from a re-analysis of the deposited data

How the results depend on the processing

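The 2 receptor peaks called higher in aged stayed 2, and the calls lower stayed 0, under DESeq2 size factors, no filter or a stricter one, DESeq2 1.42.0, limma-voom (limma 3.58.1), the replicate block, an adjusted p below 0.1, a fold above 1.5, and without each library in turn (2 to 2). With all libraries thinned to the shallowest depth the higher calls were 1, since the peak at 124080438 kept a log2 fold change of 1.60 without its call. Within 10000 bp of a start site they were 0, as the pair lies farther out. The replicate block changed no call of the receptor peaks or sums: calls remained 2 higher and 0 lower. The median log2 fold change of tested receptor peaks ranged from 0.0205 to 0.218 over these alternatives, and the same without each library in turn. The number of receptor genes called by their sums was 0 to 1 without each library in turn: Ccr2 was called without young 4. Its sum had 0.259 without young 1. The log2 fold change of the peak at 124080179 ranged from 5.52 to 8.31. Leaving out single libraries turned the sign of uncalled values near 0: the Ccr9 peak and sum, the Ccr1 sum, the Ccr1 peak at 123933313 and the Ccrl2 promoter peak. Depth limits 5 of the 19 peaks, which fell below the filter on low counts. Without the filter all 19 were tested and these 5 were not called. As the set was chosen on these values, and the peak at 124080179 passed the filter through the aged libraries alone, its repeated call is no sign of stability.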
